A study of Homo sapiens with 8 samples.

Results

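DNA repair and damage checkpoint genes were followed in the prostate cancer lines LNCaP and PC3 with overexpressed activated Notch1, which needs no ligand to signal, or with green fluorescent protein (GFP) as control. The list held 45 genes, of which 41 had a probe set that the platform annotation gave exactly 1 gene symbol, out of 8226 genes measured in this way. Where a gene had several such probe sets, the one with the highest mean over all 8 arrays was used. ERCC5 and PMS2, whose probe sets carry several symbols, and BRCA2 and FANCA were not analysed here. The study asked how each line changes its gene expression when the Notch pathway is switched on acutely. The 4 groups were LNCaP Notch1, LNCaP GFP, PC3 Notch1 and PC3 GFP, with 2 Affymetrix U95Av2 arrays each. LNCaP cells come from a lymph node metastasis, respond to androgens and keep p53, and PC3 cells come from a bone metastasis, grow without androgens and lack p53. The methods speak of 2 chips for each sample, so p-values cover the spread between arrays alone, and that spread may be technical. Each line is a single model.

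Cells repair DNA by several routes that divide the work by the kind of lesion. Homologous recombination and end joining rejoin broken DNA ends, the Fanconi anemia proteins open crosslinks between strands, mismatch repair corrects copying errors, base excision repair replaces single damaged bases, and nucleotide excision repair cuts out bulky lesions such as those made by ultraviolet light. Checkpoint kinases sense the damage and hold the cell cycle. Homologous recombination works with a sister chromatid as template and is used mainly in S and G2 phase, whereas end joining does not depend on the phase.

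All values are log2 expression levels as the authors deposited them, and changes are Notch1 minus GFP. A change was called at a Benjamini-Hochberg adjusted p under 0.05 in limma over all 12558 probe sets tested. Of the 41 repair genes, 30 lay at or above log2 5 on all 8 arrays. WRN, CHEK1, XRCC4, LIG4 and MSH3 lay under log2 5 on all 8, and BRCA1, RAD50, BLM, FANCC, ERCC6 and XPA on some. HES1, the canonical Notch target, rose in LNCaP by 6.88-fold (log2 2.78, adjusted p = 3.12e-07) and 5.89-fold in PC3 (log2 2.56, adjusted p = 4.22e-07). The lines carried their own markers: 5 of 5 LNCaP identity genes measured were higher in LNCaP GFP than in PC3 GFP (median 3.94), and 9 of 9 PC3 identity genes were lower (median -5.13). With Notch1, 4 of the 5 LNCaP identity genes fell in LNCaP, with mean levels of 8.10 to 8.24 in LNCaP Notch1 and 9.19 to 9.24 in LNCaP GFP. Of the 9 PC3 identity genes, 2 rose in LNCaP (mean levels of 5.62 to 5.63 in LNCaP Notch1 and 5.09 to 5.13 in LNCaP GFP) and 4 in PC3 (10.05 to 10.07 in PC3 Notch1 and 9.66 to 9.71 in PC3 GFP). The part of these shifts in the repair gene results was not tested. The 9 leukocyte markers measured gave no call in either line, and 1 of 9 stromal markers was called higher in LNCaP.

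In LNCaP cells, 11 of the 41 repair genes rose with Notch1, 1 fell and 29 were not called. The 11 were BLM, RAD51C, MRE11, BRCA1 and XRCC3 of homologous recombination, FANCG of the Fanconi anemia pathway, the checkpoint kinase gene CHEK1, XRCC4 of end joining, and ERCC4, DDB2 and ERCC6 of nucleotide excision repair. The gene that fell was XRCC5, which encodes the Ku80 subunit that caps broken ends. The share called higher was 26.8% of the repair genes, against 8.01% of all probe sets, and the share called lower was 2.44%, against 9.32%. In PC3 cells 1 of the 41 genes rose, ERCC4 (2.44%), against 4.19% of all probe sets, and 0 fell, against 2.01%. The median change of the repair genes was 0.14 in LNCaP and 0.04 in PC3, and over all probe sets it was 0.04 in LNCaP and -0.08 in PC3. With 1 probe set per gene, as for the repair genes, the shares of all 8226 genes were 8.47% higher and 10.2% lower in LNCaP and 4.36% higher and 2.21% lower in PC3. At an unadjusted p under 0.05, 19 repair genes passed in LNCaP (28.9% of all probe sets did) and 7 in PC3 (25% of all). Both Notch1 arrays lay above both GFP arrays for 21 repair genes in LNCaP (32.9% of all probe sets) and below them for 11 (24.1%). In PC3 these counts were 12 above (20.6%) and 9 below (35.4%).

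**Figure D1:**
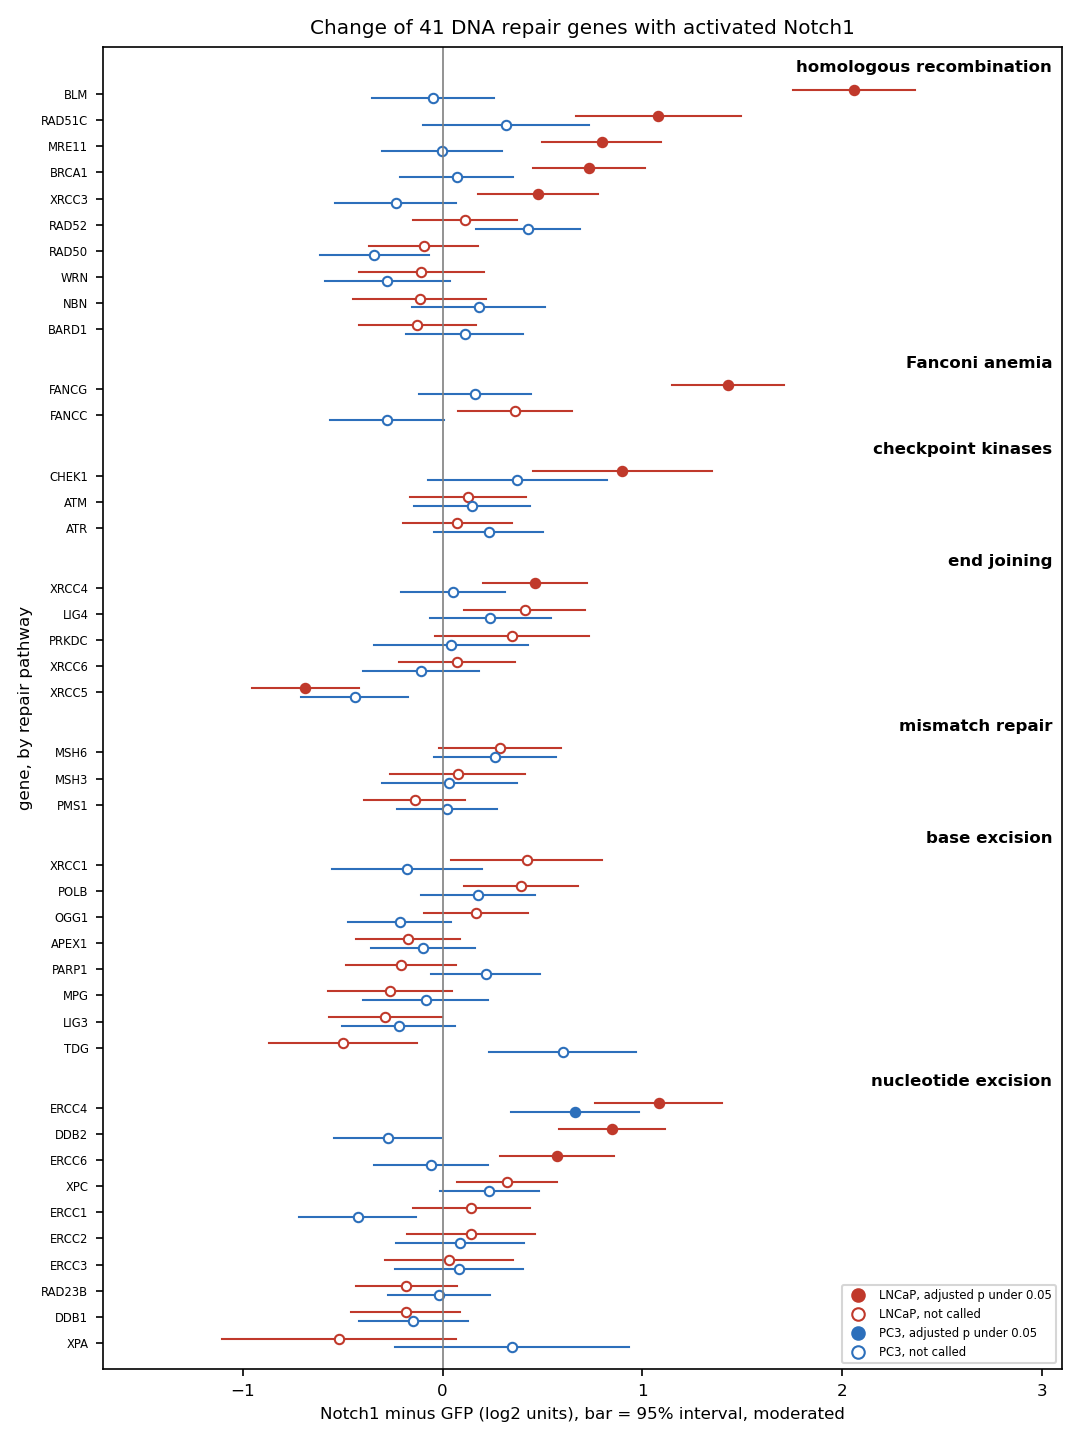
Change with Notch1 (Notch1 minus GFP, log2, horizontal axis) for each of the 41 repair genes, grouped by pathway, in LNCaP and in PC3, with filled points for changes called by limma and bars for the 95% confidence interval. The called changes in LNCaP run from -0.69 for XRCC5 to 2.06 for BLM, and ERCC4 is the called gene in PC3.

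Homologous recombination held the largest number of called genes in LNCaP, 5 of 10 (50%, against 8.47% of all genes called higher). The median change over the 10 was 0.30. Pathway lists held 2 to 10 genes, so the number called also depends on list size. BLM encodes the helicase of Bloom syndrome, which unwinds recombination intermediates. Its level was 6.60 and 6.58 in LNCaP Notch1, against 4.72 and 4.34 in LNCaP GFP, and 6.63 and 6.54 in PC3 Notch1, against 6.62 and 6.66 in PC3 GFP. The LNCaP GFP arrays stood apart, and the other 6 arrays lay between 6.54 and 6.66. BLM rose by 2.06 on the log2 scale in LNCaP (SE 0.14, adjusted p = 4.83e-06), a value set against a group under log2 5. With values under log2 5 set to 5, the rise was 1.59 (adjusted p = 0.000246). The PC3 change was -0.05 (95% confidence interval -0.36 to 0.25, adjusted p = 0.843), and the changes differed between LNCaP and PC3 by 2.11 (SE 0.19, adjusted p = 9.86e-05).

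MRE11 is the nuclease of the complex with RAD50 and NBN that trims broken ends and activates ATM. MRE11 was at 8.00 and 7.72 in LNCaP Notch1, against 7.13 and 7.00 in LNCaP GFP, and at 6.80 and 6.66 in PC3 Notch1, against 6.65 and 6.82 in PC3 GFP. The LNCaP groups did not overlap, and the PC3 groups did. The gene rose in LNCaP by 1.74-fold (log2 0.80, SE 0.13, adjusted p = 0.00221) and gave 0.00 in PC3 (adjusted p = 0.995). Its partners in the complex were not called: in LNCaP the change was -0.09 for RAD50 and -0.11 for NBN, and in PC3 -0.34 for RAD50 and 0.18 for NBN. All 3 MRE11 probe sets were called in LNCaP, with changes of 0.64 to 0.80.

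RAD51C, a Fanconi anemia and recombination gene, was at 7.37 and 7.47 in LNCaP Notch1, against 6.22 and 6.47 in LNCaP GFP. In PC3 it was at 6.31 and 6.36 with Notch1, against 5.69 and 6.34 with GFP. The LNCaP groups did not overlap, and in PC3 1 GFP array reached the Notch1 level. The RAD51C change was 2.11-fold in LNCaP (log2 1.08, SE 0.19, adjusted p = 0.00253), with 0.32 in PC3 (adjusted p = 0.305). The difference between lines of 0.76 was not called (adjusted p = 0.0809). A second RAD51C probe set was not called in LNCaP (0.30, adjusted p = 0.168).

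BRCA1 encodes a ubiquitin ligase that works with BARD1 and steers breaks into recombination. BRCA1 lay near the low end of the arrays, at 5.24 and 5.03 in LNCaP Notch1, against 4.52 and 4.29 in LNCaP GFP, and at 4.35 and 4.31 in PC3 Notch1, against 4.26 and 4.25 in PC3 GFP. Both LNCaP Notch1 arrays were above the other 6. It rose in LNCaP by 0.73 on the log2 scale (SE 0.13, adjusted p = 0.00256) and gave 0.07 in PC3 (adjusted p = 0.754). The 3 BRCA1 probe sets were called in LNCaP, with changes of 0.73 to 1.44. With values under log2 5 set to 5, the BRCA1 change in LNCaP was 0.13 and was not called (adjusted p = 0.376). BARD1 was not called, at -0.13 in LNCaP (adjusted p = 0.602) and 0.11 in PC3.

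XRCC3, whose protein forms a complex with that of RAD51C, was at 6.33 and 6.11 in LNCaP Notch1, against 5.82 and 5.67 in LNCaP GFP, with no overlap. This was a 1.39-fold rise (log2 0.48, SE 0.14, adjusted p = 0.0352). In PC3 it was at 7.21 and 6.98 with Notch1, against 7.41 and 7.26 with GFP (-0.23, adjusted p = 0.299). The XRCC3 call in LNCaP was lost when any 1 of the 4 LNCaP arrays was left out (changes of 0.37 to 0.59). RAD52, which anneals single strands, gave 0.11 in LNCaP and 0.43 in PC3 (adjusted p = 0.0605), and the Werner helicase gene WRN -0.11 in LNCaP and -0.28 in PC3.

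**Figure D2:**
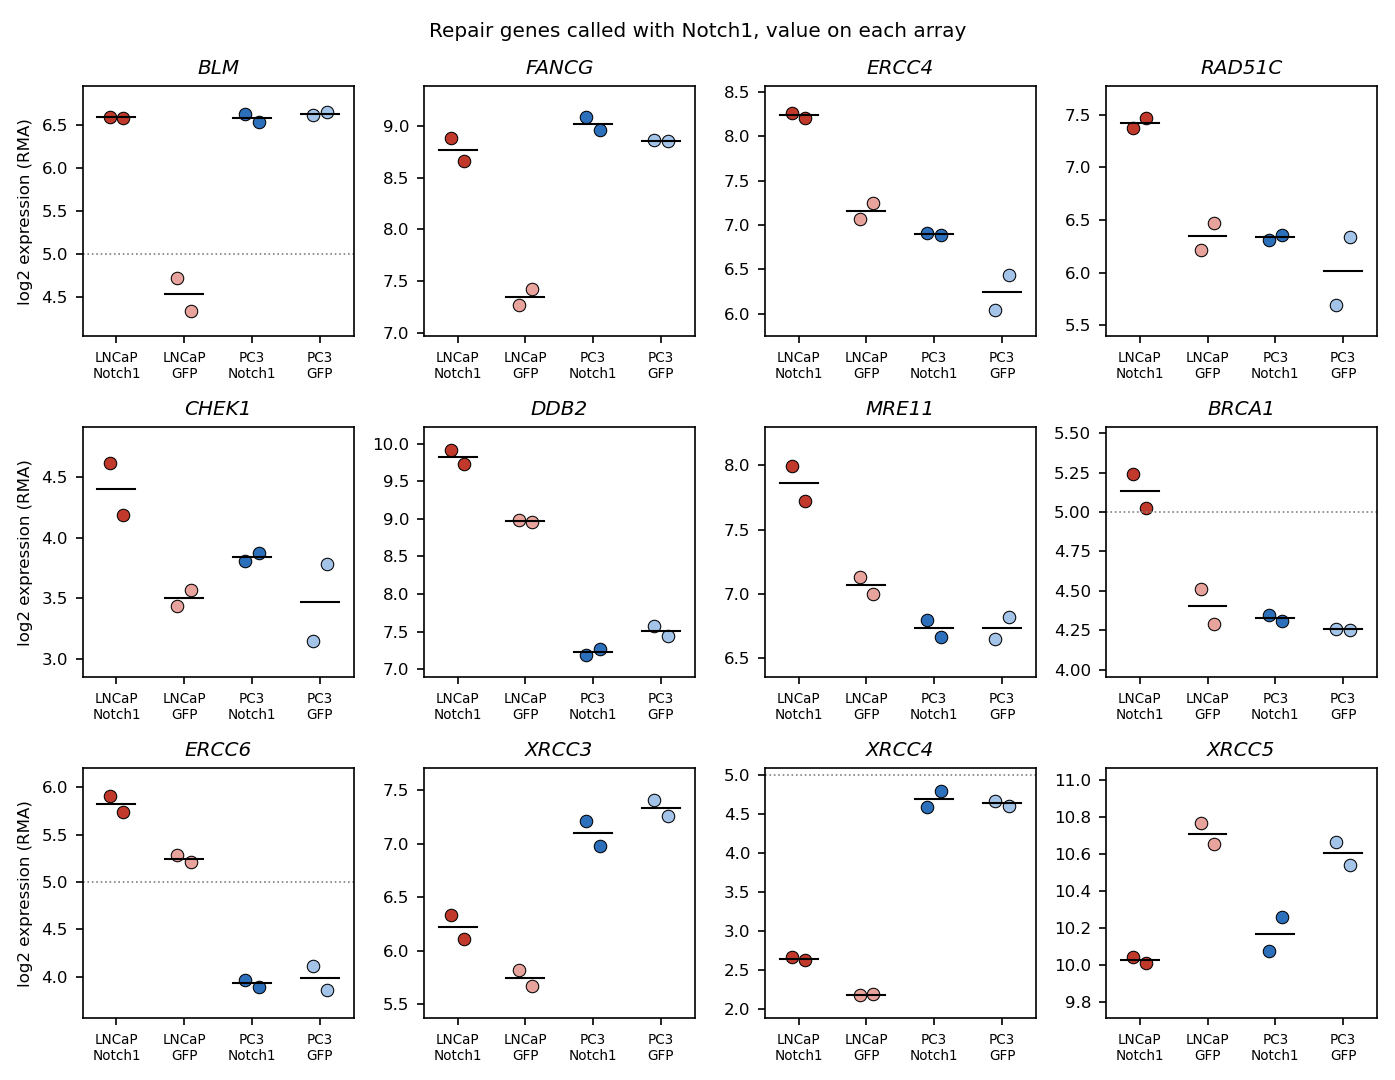
Log2 expression level on each of the 8 arrays for the repair genes called in LNCaP or PC3, 1 panel per gene. Groups are in the order LNCaP Notch1, LNCaP GFP, PC3 Notch1, PC3 GFP, with a line at each group mean. A dotted line marks log2 5 where the axis reaches it. Panels were chosen by the call, so the gap between groups in them is not further support. In the BLM panel the 2 LNCaP GFP arrays, at 4.72 and 4.34, lie below the other 6.

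The 2 Fanconi anemia genes measured belong to the core complex that marks crosslinked DNA for repair. FANCG was at 8.88 and 8.66 in LNCaP Notch1, against 7.26 and 7.42 in LNCaP GFP, and at 9.09 and 8.96 in PC3 Notch1, against 8.87 and 8.85 in PC3 GFP. The LNCaP GFP arrays were again the low ones. FANCG rose in LNCaP by 2.69-fold (log2 1.43, SE 0.13, adjusted p = 2.76e-05), with 0.16 in PC3 (adjusted p = 0.429). FANCC was at 5.73 and 5.54 in LNCaP Notch1, against 5.21 and 5.33 in LNCaP GFP, and at 4.53 and 4.70 in PC3 Notch1, against 4.98 and 4.81 in PC3 GFP. The FANCC values were of opposite sign without a call in either line, 0.36 in LNCaP (adjusted p = 0.0837) and -0.28 in PC3 (adjusted p = 0.213).

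Of the checkpoint kinase genes, CHEK1 was called and ATM and ATR were not. CHEK1 encodes the kinase that ATR activates at stalled replication forks. Its level was 4.61 and 4.19 in LNCaP Notch1, against 3.44 and 3.57 in LNCaP GFP, and 3.80 and 3.87 in PC3 Notch1, against 3.15 and 3.79 in PC3 GFP. All 8 values lay under log2 5, where levels depend on the array background. The fitted rise in LNCaP was 0.90 on the log2 scale (SE 0.20, adjusted p = 0.0112), which is 0 by construction with values under log2 5 set to 5. It was not called without replicate 1 of LNCaP Notch1 (0.69, adjusted p = 0.116). In PC3 the change was 0.37 (adjusted p = 0.271), and 0.69 (adjusted p = 0.0302) without replicate 2 of PC3 GFP.

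ATM and ATR are the apical kinases, ATM for double-strand breaks and ATR for exposed single strands. ATM was at 7.02 and 6.84 in LNCaP Notch1, against 6.90 and 6.69 in LNCaP GFP, and at 5.97 and 6.13 in PC3 Notch1, against 5.96 and 5.84 in PC3 GFP. The changes were 0.13 in LNCaP (adjusted p = 0.59) and 0.15 in PC3 (adjusted p = 0.493). ATR was at 7.69 and 7.67 in LNCaP Notch1, against 7.55 and 7.67 in LNCaP GFP, and at 6.72 and 6.70 in PC3 Notch1, against 6.36 and 6.60 in PC3 GFP. Its changes, 0.07 in LNCaP (adjusted p = 0.769) and 0.23 in PC3 (adjusted p = 0.263), were not called either.

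End joining showed changes in both directions in LNCaP. XRCC5, which with XRCC6 forms the Ku ring that recruits the kinase encoded by PRKDC, was at 10.04 and 10.01 in LNCaP Notch1, against 10.77 and 10.65 in LNCaP GFP. In PC3 it was at 10.07 and 10.26 with Notch1, against 10.67 and 10.54 with GFP. Notch1 arrays were below GFP arrays in both lines. XRCC5 fell by 0.69 in LNCaP (SE 0.12, adjusted p = 0.00273), and its change of -0.44 in PC3 was not called (adjusted p = 0.0593). Of the 3 other XRCC5 probe sets, those with changes of -1.05 and -0.89 were called in LNCaP and that with 0.20 was not. XRCC6 was not called, at 0.07 in LNCaP and -0.11 in PC3.

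XRCC4 is the scaffold of DNA ligase IV. It was at 2.67 and 2.62 in LNCaP Notch1, against 2.17 and 2.19 in LNCaP GFP (log2 0.46, SE 0.12, adjusted p = 0.0209), levels far into the background range, and at 4.59 and 4.80 in PC3 Notch1, against 4.67 and 4.61 in PC3 GFP. The change is 0 by construction with values under log2 5 set to 5, its call was lost when any 1 of the 4 LNCaP arrays was left out (changes of 0.44 to 0.49), and the PC3 groups overlapped. PRKDC, the catalytic subunit of the DNA-dependent kinase, was at 9.71 and 9.71 in LNCaP Notch1, against 9.22 and 9.50 in LNCaP GFP, and at 8.85 and 8.68 in PC3 Notch1, against 8.46 and 8.99 in PC3 GFP. The LNCaP change of 0.35 (SE 0.17, adjusted p = 0.225) was not called, and in PC3 the 2 GFP arrays lay on either side of the Notch1 arrays (0.04, adjusted p = 0.898). A second PRKDC probe set was called in LNCaP (0.60, adjusted p = 0.012). LIG4, the ligase itself, gave 0.41 in LNCaP (adjusted p = 0.0664).

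Nucleotide excision repair gave 3 called genes of 10 in LNCaP (30%, against 8.47% of all genes called higher), with a median of 0.14. ERCC4 encodes XPF, the nuclease that with ERCC1 makes the cut on the 5' side of the lesion and also acts on crosslinks. ERCC4 was at 8.27 and 8.20 in LNCaP Notch1, against 7.06 and 7.25 in LNCaP GFP, and at 6.91 and 6.89 in PC3 Notch1, against 6.04 and 6.43 in PC3 GFP. Notch1 arrays were above GFP arrays in both lines. The rise was 2.11-fold in LNCaP (log2 1.08, SE 0.14, adjusted p = 0.000477) and 1.58-fold in PC3 (log2 0.66, SE 0.14, adjusted p = 0.0241), with a difference of 0.42 between lines (adjusted p = 0.184). All 3 ERCC4 probe sets were called in LNCaP and 1 of 3 in PC3, where the others gave 0.11 and 0.10. Without replicate 1 of PC3 GFP the PC3 change was 0.47 (adjusted p = 0.143), and the call was also lost without replicate 1 (adjusted p = 0.152) or replicate 2 (adjusted p = 0.131) of PC3 Notch1. ERCC1, its partner, gave 0.14 in LNCaP (adjusted p = 0.544) and -0.43 in PC3 (adjusted p = 0.0869), where its 3 probe sets read -0.41 to -0.49.

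DDB2 is the damage sensor that finds ultraviolet lesions in chromatin, and its gene is a known p53 target. DDB2 was at 9.92 and 9.73 in LNCaP Notch1, against 8.99 and 8.96 in LNCaP GFP, and at 7.19 and 7.27 in PC3 Notch1, against 7.57 and 7.44 in PC3 GFP. The Notch1 arrays were the higher ones in LNCaP and the lower ones in PC3. The rise of DDB2 in LNCaP was 1.80-fold (log2 0.85, SE 0.12, adjusted p = 0.00072), and the PC3 change was -0.28 (adjusted p = 0.187). XPC, a further damage sensor and p53 target, was at 10.72 and 10.80 in LNCaP Notch1, against 10.45 and 10.42 in LNCaP GFP (0.32, adjusted p = 0.0781), and gave 0.23 in PC3 (adjusted p = 0.223). Of the 12 p53 targets listed, 3 rose in LNCaP (25%, against 8.47% of all genes) and 2 fell (16.7%, against 10.2%). Their LNCaP changes ran from -0.93 to 3.48, with a median of 0.19. In PC3, 4 rose (33.3%, against 4.36%) and 1 fell (8.33%, against 2.21%), with a median of 0.02. TP53I3, a p53-induced oxidoreductase gene, rose in LNCaP by 11.2-fold (log2 3.48), and CDKN1A, which encodes p21, gave 0.10 there (adjusted p = 0.693) and rose by 1.74 in PC3.

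ERCC6, the CSB protein that couples repair to transcription, was at 5.90 and 5.74 in LNCaP Notch1, against 5.29 and 5.21 in LNCaP GFP, and at 3.97 and 3.90 in PC3 Notch1, against 4.12 and 3.86 in PC3 GFP. It rose in LNCaP by 1.49-fold (log2 0.57, SE 0.13, adjusted p = 0.0109), a call lost without replicate 1 of LNCaP Notch1 (0.49) or replicate 2 of LNCaP GFP (0.54). Its second probe set was not called (0.44, adjusted p = 0.116). The other nucleotide excision genes, ERCC1, ERCC2 and ERCC3, XPA and XPC, DDB1 and RAD23B, gave no call in either line at the probe sets used, with LNCaP changes of -0.52 for XPA to 0.32 for XPC. Of their other probe sets, 1 of ERCC1 was called lower in PC3 (-0.49, adjusted p = 0.0431), and 1 of XPA, whose protein verifies the damage, was called lower in LNCaP (-0.48, adjusted p = 0.03).

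Base excision and mismatch repair gave no call in either line at the probe sets used. The 8 base excision genes had a median change of -0.19 in LNCaP and -0.09 in PC3. TDG, the glycosylase that removes thymine from mismatches with guanine, was at 8.69 and 8.48 in LNCaP Notch1, against 9.00 and 9.17 in LNCaP GFP, and at 7.23 and 7.15 in PC3 Notch1, against 6.33 and 6.84 in PC3 GFP. Its values were of opposite sign, -0.50 in LNCaP (adjusted p = 0.0678) and 0.60 in PC3 (adjusted p = 0.0613), neither called. POLB, the gap-filling polymerase, gave 0.39 in LNCaP (adjusted p = 0.0622) and XRCC1, the scaffold of the pathway, 0.42 (adjusted p = 0.128). The remaining LNCaP changes ran from -0.29 for the ligase gene LIG3 to 0.17 for the glycosylase gene OGG1, with PARP1 at -0.21, APEX1 at -0.17 and MPG at -0.26. A further LIG3 probe set was called lower in LNCaP (-0.49, adjusted p = 0.0497) and differed between the lines (-0.75, adjusted p = 0.0429). A second PARP1 probe set, for the sensor of strand breaks, also differed between the lines (-0.86, adjusted p = 0.013) without a call in either. In mismatch repair, MSH6, which recognises mispaired bases, gave 0.29 in LNCaP and 0.26 in PC3, MSH3 0.08 in LNCaP and 0.03 in PC3, and PMS1 -0.14 in LNCaP and 0.02 in PC3.

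**Figure D3:**
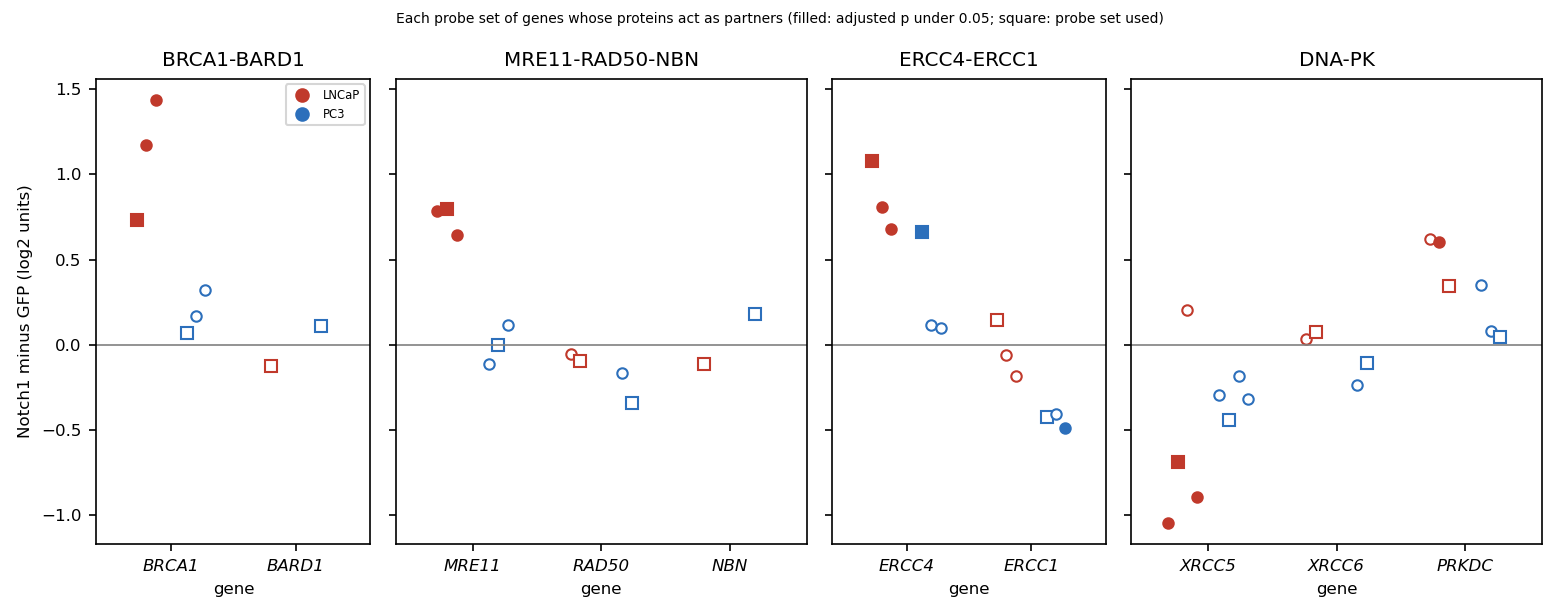
Change with Notch1 (Notch1 minus GFP, log2 units, vertical axis) at each probe set of genes whose proteins work in a common complex, LNCaP in red and PC3 in blue, with filled points for called changes and squares for the probe set used. MRE11 at 0.80 stands apart from RAD50 at -0.09 and NBN at -0.11 in LNCaP, and XRCC5 at -0.69 from XRCC6 at 0.07.

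The effect of Notch1 differed between LNCaP and PC3 for 9 of the 41 genes by limma's test of the difference. It was more positive in LNCaP for 8 genes (19.5%, against 6.49% of all probe sets) and less positive for 1, TDG (2.44%, against 7.67%). After BLM, the differences were 1.26 for FANCG (adjusted p = 0.00134), 1.12 for DDB2 (adjusted p = 0.00189) and 0.80 for MRE11 (adjusted p = 0.0202). XRCC3, BRCA1, FANCC and ERCC6 differed by 0.63 to 0.71, with adjusted p-values of 0.0345 to 0.0434, and TDG by -1.10 (adjusted p = 0.0119). BLM, FANCG and DDB2 kept this call in all 15 alternatives run. The MRE11 call was lost without replicate 2 of PC3 Notch1 (0.73), replicate 2 of LNCaP GFP (0.73) or replicate 1 of LNCaP Notch1 (0.66), and the TDG call without replicate 1 of PC3 Notch1 (-1.06) or replicate 2 of LNCaP Notch1 (-0.99). The calls of XRCC3 (0.60 to 0.83) and BRCA1 (0.55 to 0.68) were lost without replicate 1 of LNCaP Notch1, replicate 2 of LNCaP GFP, either PC3 Notch1 array or replicate 1 of PC3 GFP. Those of FANCC (0.54 to 0.73) and ERCC6 (0.50 to 0.71) were lost without any single array other than replicate 2 of PC3 GFP. XRCC3, BRCA1, FANCC and ERCC6 also lost the call with median centring, the last 3 of these with quantile normalization, and MRE11, XRCC3, BRCA1, FANCC and TDG with the floor at log2 5. RAD51C, CHEK1, XRCC4, XRCC5 and ERCC4, called in LNCaP, were not shown to differ between the lines at the probe sets used. Another XRCC5 probe set, with a change of -1.05 in LNCaP and -0.30 in PC3, did differ by limma's test (-0.75, adjusted p = 0.0178).

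The GFP arrays showed where the lines already differed. Between LNCaP GFP and PC3 GFP, 19 of the 41 genes were higher in LNCaP (46.3%, against 40.3% of all probe sets) and 9 lower (22.0%, against 18.5%), shares close to those of all probe sets. Array medians were 6.28 to 6.36 on the LNCaP arrays and 5.95 to 6.01 on the PC3 arrays, so values set across lines carry that limit. Of the genes that rose with Notch1 in LNCaP, BLM (-2.11), FANCG (-1.51) and XRCC3 (-1.59) were lower in LNCaP GFP than in PC3 GFP, whereas DDB2 (1.47), ERCC6 (1.26) and ERCC4 (0.92) were higher. ATM (0.90), ATR (1.13), RAD50 (1.92), XPC (1.73) and TDG (2.49) were also higher in LNCaP GFP. These differences use the same LNCaP GFP arrays as the Notch1 changes in LNCaP, so they are not independent of those changes. The XPA probe sets disagreed: the one used averaged 7.70 in LNCaP GFP and 4.33 in PC3 GFP, and another 6.24 in LNCaP GFP and 4.41 in PC3 GFP, with PC3 GFP in the background range at both, whereas the remaining one read 5.63 in LNCaP GFP and 5.82 in PC3 GFP.

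Other genes of the same pathways were taken from lists that leave out the 45. Of 63 measured, 31 rose (49.2%) and 2 fell (3.17%) in LNCaP, with a median of 0.42. Of all 8226 genes, 8.47% rose and 10.2% fell there. In PC3, 4 of the 63 rose (6.35%) and 1 fell (1.59%), with a median of 0.12. These PC3 shares were near those of all genes, 4.36% higher and 2.21% lower. The other checkpoint genes had 9 of 15 called higher in LNCaP, led by H2AX (1.45), the histone variant phosphorylated around breaks, TIMELESS (1.43) and CDC25C (1.35). Mismatch repair, with no call among its 3 genes above, had 8 of 10 other genes called higher, led by the clamp loader genes RFC5 (1.31) and RFC3 (1.20) and the ligase gene LIG1 (1.27), which all serve replication as well. The base excision list had 6 of 10, among them FEN1 (1.29) and TYMS (1.11). TYMS encodes thymidylate synthase, an enzyme of nucleotide synthesis and not of base excision itself. Homologous recombination and crosslink repair had 6 of 15, led by FANCI (1.76), RECQL (1.52) and RAD54L (1.14). The other nucleotide excision genes were split in LNCaP, with 2 higher and 2 lower of 12 (16.7% each). The lower ones were CCNH (-0.85) and MNAT1 (-0.58) of the kinase module of TFIIH. Of the 63, 9 also stand on the cell cycle lists and all 9 rose, and 22 of the other 54 rose.

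**Figure D4:**
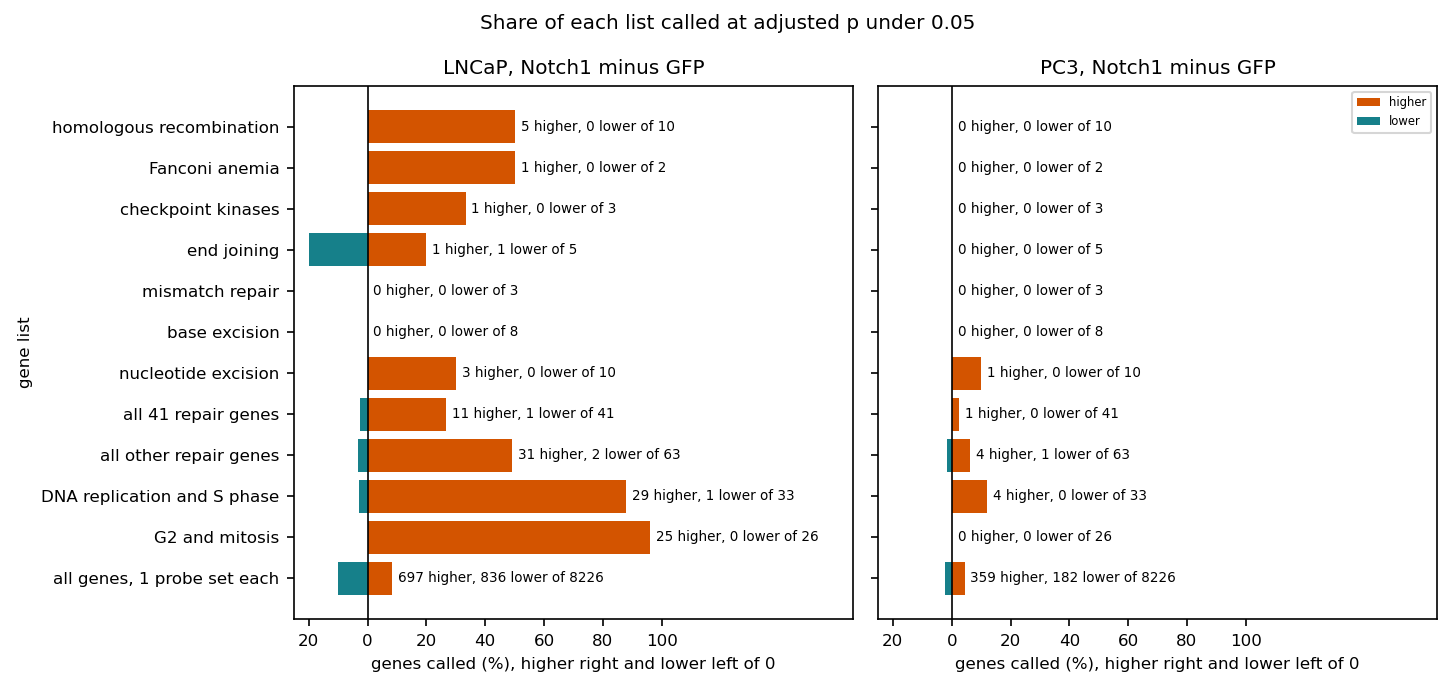
Share of genes called higher or lower with Notch1 (percent of genes measured, horizontal axis) in LNCaP and in PC3 for the repair genes by pathway, the other repair genes, the cell cycle lists and all 8226 genes with 1 probe set each. In LNCaP 26.8% of the repair genes were called higher, against 8.47% of all genes.

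Cell cycle genes also changed with Notch1. Of 26 G2 and mitosis genes, 25 rose in LNCaP (median 1.59) and 0 were called in PC3 (median -0.12). Of 33 S phase genes, 29 rose and 1 fell in LNCaP (median 0.82), and 4 rose in PC3 (median 0.17). The mean level of the G2 and mitosis list was 7.54 to 7.61 on the LNCaP Notch1 arrays, 5.99 on both LNCaP GFP arrays, 7.89 in PC3 Notch1 and 7.88 to 8.02 in PC3 GFP. LNCaP GFP was thus the low group. Of the genes that rose in LNCaP, BLM, FANCG, XRCC3 and XRCC4 were lower in LNCaP GFP than in PC3 GFP. DDB2, ERCC6 and ERCC4 were higher in LNCaP GFP instead. MRE11, RAD51C, BRCA1 and CHEK1 were not called between the GFP groups. The same LNCaP GFP arrays enter the Notch1 change and the GFP comparison. A low reading on them gives both a rise and a lower start, so the match is not a separate observation. CDK1, the mitotic kinase gene, rose 5.02-fold in LNCaP with 0.05 in PC3, and the proliferation marker gene MKI67 rose by 0.93 in LNCaP (adjusted p = 0.000807) with -0.19 in PC3. None of the 41 repair genes stands on either cycle list. That is a matter of list membership and does not show their expression to be free of the cycle. The part of the cell cycle in the repair gene changes was not tested.

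Promoters of the repair genes were read for letters known to bind E2F factors, which drive S phase genes, and CSL, the DNA-binding partner of Notch. The windows run from 250 bases before to 50 after the gene start in RefSeq, GRCh38.p14, and 36 of the 41 genes had one. Only 1 start was read per gene, for those printed below the outer end of the gene's span. Promoters of transcripts that begin elsewhere were not read, so a gene without a match here may still carry such letters there. An E2F match (TTTCCCGC, TTTCGCGC, TTTGCCGC or TTTGGCGC, either strand) was present in 0 of the 11 genes that rose in LNCaP and in 5 of the 25 others (20%), FANCC, XRCC6, MSH3, MSH6 and XPC, against 3.33% of all 27305 promoters of this length and 4.77% of the 6618 of genes on the array. A CSL match (GTGGGAA, either strand) was present in 0 of 11 and in 1 of 25, LIG4, against 6.28% of all and 5.62% of those of genes on the array. With background shares this low, 0 of 11 for either motif does not set the genes that rose apart from other genes. The sequences below are shown because they carry the matches, in capitals, in genes that were not called in either line. They are written 5' to 3' on the strand of the gene, and a match is a description of letters, not of a bound site. The windows lie at chr9:95317863-95317892 (minus strand, FANCC distal) and chr9:95317737-95317766 (minus strand, FANCC proximal), chr5:80654536-80654565 (plus strand, MSH3, where matches overlap), chr3:14178822-14178851 (minus strand, XPC) and chr13:108218393-108218422 (minus strand, LIG4).
FANCC distal, E2F: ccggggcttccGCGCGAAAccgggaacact
FANCC proximal, E2F: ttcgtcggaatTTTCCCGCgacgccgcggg
MSH3, E2F: gcggtcaagTTTGGCGCGAAAttgtggccg
XPC, E2F: cctgcgcccTTTCCCGCctctcgcgagaac
LIG4, CSL: ccgctcccggaGTGGGAAccctgcccgctc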

How the data were processed

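Gene expression was measured on Affymetrix U95Av2 arrays in LNCaP and PC3 cells with activated Notch1 or GFP, 2 arrays per group by the sample labels. Per the methods, the authors summarised the raw arrays with RMA (background correction, quantile normalization and 1 summary per probe set) and then used limma. The authors deposited log2 values per probe set and array, which were analysed as they stood. The sources used here give no tool versions and do not say whether both lines were normalized together.

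Of 12625 probe sets, 67 controls were left out and 12558 tested with limma 3.58.1 in R 4.3.3, fitting 4 group means (4 residual and 6.37 prior degrees of freedom) and two-sided tests. The number of arrays limits the precision: standard errors of the repair genes in LNCaP were 0.11 to 0.26 (median 0.13). The platform annotation gave 1 symbol to 10943 probe sets, several to 545 and none to 1070. The probe sets used for BRCA1, ERCC4, FANCC, MSH6, APEX1, XRCC1 and DDB1 are of the array type whose probes may also match related transcripts. Calls in the text are limma's. The fitting code was first run on simulated data with independent noise, which checks the code and not the calls made here.

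The repair genes, the gene lists and the tests were chosen with earlier results of these data known. The named-gene rule gave per-array values for called genes and, whatever their test, for BRCA1, BRCA2 (not analysed here), ATM, ATR, CHEK1 and PRKDC. It named up to 3 called genes of each comparison list with the largest changes, and HES1, TP53I3, CDKN1A, CDK1 and MKI67. Array values of FANCC, TDG and XPC, which were not called in either line, were given after their values were seen. Alternatives were median centring, quantile normalization, leaving out the dimmest 25% of probe sets, a floor at log2 5, averaging the probe sets of a gene, the arrays of 1 line alone, an intensity trend, the replicate number as a block, and leaving out each array.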

Additional observations from a re-analysis of the deposited data

Results flagged for a closer look

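The effect of Notch1 differed between LNCaP and PC3 by limma's test of the difference for 9 repair genes, and these differences (LNCaP effect minus PC3 effect, log2) are repeated here as values. BLM differed by 2.11 (adjusted p = 9.86e-05), FANCG by 1.26, DDB2 by 1.12, MRE11 by 0.80, XRCC3 by 0.71, BRCA1 by 0.66, FANCC by 0.64 and ERCC6 by 0.63, and TDG differed by -1.10 in the other direction. FANCC and TDG were called in neither line on their own and had changes of opposite sign. The G2 and mitosis list had 25 of 26 genes called higher in LNCaP and 0 called in PC3. Whether it has a part in these differences was not tested.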

How the results depend on the processing

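The 16 alternatives run in each line kept 6 of the 12 LNCaP calls throughout: MRE11, BLM, FANCG, XRCC5, ERCC4 and DDB2. The 11 genes higher in LNCaP became 7 with a floor at log2 5 and ranged from 7 (without replicate 1 of LNCaP Notch1) to 11 with 1 array left out. The floor set the prior degrees of freedom to 0.386, against 6.37 as deposited, since floored probe sets have no spread. The count lower in LNCaP was 2 with median centring, with the LNCaP arrays alone and with the replicate block, and 1 to 2 with 1 array left out. The PC3 count higher of 1 became 2 with median centring, the 25% filter and the intensity trend, and 0 with the floor, the mean of probe sets and the PC3 arrays alone. It ranged from 0 (without replicate 1 of PC3 GFP or either PC3 Notch1 array) to 4 (without replicate 2 of PC3 GFP). The PC3 count lower of 0 became 1 with quantile normalization, the filter and the trend, and 0 to 2 with 1 array left out. The 9 differences between lines became 4 with the floor and 5 with median centring, and 4 to 12 with 1 array left out. Over all probe sets, 45.8% of the called differences were positive, against 30.4% with median centring.

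Among uncalled values, PRKDC in PC3 turned to -0.035 with quantile normalization and ran from -0.22 (without replicate 1 of PC3 GFP) to 0.31 (without replicate 2) with 1 array left out, and ATM in LNCaP to -0.047 with the mean of probe sets. Replicate numbers are shared by all groups, but no source says what a number marks, and deviations of same-numbered arrays from their group means correlated at 0.264 between Notch1 and GFP in LNCaP and 0.124 in PC3, and at 0.124 to 0.545 over all pairs of groups. With the replicate block, 15 genes were higher and 2 lower in LNCaP, 3 higher and 2 lower in PC3, and 13 differed between lines. Differences between lines called over all 12558 probe sets were then 1445 positive and 1434 negative, against 815 and 963 without the block. The block also raised the counts over all 12558 probe sets, to 1357 higher and 1514 lower in LNCaP and 919 higher and 588 lower in PC3, against 1006 and 1170 in LNCaP and 526 and 253 in PC3 without it. ERCC6 also lost its difference between lines with the mean of probe sets and with the intensity trend.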
